A study of Homo sapiens with 18 samples.

Results

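Asparagine synthetase (ASNS) and 9 amino acid transporters were followed in MSTO-211H cells, an established line of human malignant mesothelioma, left untreated or exposed to piroxicam (P), to cisplatin (C) or to the combination of both (P/C). The genes were SLC7A11, SLC7A5, SLC7A1, SLC3A2, SLC6A15, SLC6A9, SLC1A4, SLC1A5 and SLC38A2. They were taken as a named list, and their probe sets were those with 1 of these names as the single gene symbol in the platform annotation. This gave 20 of the 22283 probe sets of the HGU133A array, from 10 genes. RNA was measured on 18 arrays, 1 per sample. Piroxicam, an anti-inflammatory inhibitor of the cyclooxygenases, was given at 760 µM, and cisplatin, a platinum drug that binds and crosslinks DNA, at 4.5 µg/mL. Cells stayed untreated or received P, C or P/C for 8 h, with 2 arrays in each group. The same treatments for 24 h were measured on 2 arrays of untreated cells, 3 of P, 3 of C and 2 of P/C. All groups are cultures of this 1 cell line, and the labels name no vehicle for the untreated cells.

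ASNS makes asparagine from aspartate with the amide nitrogen of glutamine. The other members carry amino acids across the plasma membrane. SLC3A2, also called CD98 or 4F2hc, is the heavy chain that joins SLC7A5 to form a carrier of large neutral amino acids and joins SLC7A11 to form the cystine/glutamate exchanger that feeds glutathione synthesis. SLC7A1 carries cationic amino acids, SLC6A15 branched-chain amino acids and proline, SLC6A9 glycine, and SLC1A4 and SLC1A5 small neutral amino acids, with glutamine among those of SLC1A5. SLC38A2, also called SNAT2, brings in small neutral amino acids together with sodium. When amino acids run short or a cell meets other stresses, kinases of the integrated stress response phosphorylate the initiation factor eIF2, and translation of the transcription factor ATF4 increases. ATF4 pairs with C/EBP proteins on composite C/EBP-ATF elements, and ASNS and many amino acid transporters are known ATF4 targets.

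On GRCh38.p14 RefSeq places ASNS at chr7:97851677-97928441, SLC3A2 at chr11:62856109-62888860, SLC7A5 at chr16:87830023-87869507 and SLC6A15 at chr12:84859491-84912799. The promoters of ASNS, SLC7A5 and SLC3A2 are printed because their genes were called higher together in P-treated cells. Each holds the 250 bases before a RefSeq start site, read 5′ to 3′ on the strand of the gene, and capitals mark a match to TTNCATCA or to its reverse complement TGATGNAA, a form of the C/EBP-ATF element. The ASNS sequence is chr7:97872409-97872658 (minus strand), that of SLC7A5 chr16:87869508-87869757 (minus strand) and that of SLC3A2 chr11:62881449-62881698 (plus strand). ASNS has 2 start windows in the table and SLC3A2 3, and those printed belong to starts inside the gene's span.
ASNS: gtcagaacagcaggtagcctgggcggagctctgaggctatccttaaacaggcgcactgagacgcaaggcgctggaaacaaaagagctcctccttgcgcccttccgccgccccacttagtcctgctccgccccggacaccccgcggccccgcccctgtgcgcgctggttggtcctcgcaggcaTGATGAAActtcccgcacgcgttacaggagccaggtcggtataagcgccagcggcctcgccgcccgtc
SLC7A5: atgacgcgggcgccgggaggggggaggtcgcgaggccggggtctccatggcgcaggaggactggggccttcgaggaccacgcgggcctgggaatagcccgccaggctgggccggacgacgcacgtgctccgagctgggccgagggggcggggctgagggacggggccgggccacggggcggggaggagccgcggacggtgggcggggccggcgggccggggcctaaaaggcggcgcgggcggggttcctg
SLC3A2: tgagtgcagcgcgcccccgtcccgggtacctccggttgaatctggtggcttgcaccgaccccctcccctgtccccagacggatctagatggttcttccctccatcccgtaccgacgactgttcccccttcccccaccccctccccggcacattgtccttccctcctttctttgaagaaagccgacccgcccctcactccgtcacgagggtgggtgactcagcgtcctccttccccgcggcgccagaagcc
The ASNS match reads TGATGAAA and begins 68 bases before the start. The motif, on either strand, occurred in 1270 of 35116 RefSeq promoter windows (3.62%), each of which runs from 250 bases before a start to 50 after it. Of the members, 8 genes had windows in the RefSeq table, 14 windows in all, and 5 genes had a match in at least 1 window. SLC1A4 held TTGCATCA beginning 7 bases before a start, 1 of the 3 SLC1A5 windows held TGATGCAA 97 bases before a start, and the matches of SLC7A1 and SLC3A2 lay after the start. SLC7A5, SLC6A9 and SLC38A2 had none of these letters in their windows. A match describes the letters only.

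A signal of 100, or 6.64 on the log2 scale of the deposited values, was reached by 15.0% to 16.8% of the probe sets of an array, and the median log2 signals were 2.72 to 2.83. A probe set was tested if the interquartile range of its log2 values was at least 0.25 and its signal was at least 100 on at least 25% of the arrays. This left 3057 probe sets, of which 10 are members, from 7 genes. Of these 10, 8 were at or over 100 on all 18 arrays. SLC6A15 was so on 10 arrays and the SLC7A11 probe set 207528_s_at on 5, so these could pass through the groups in which they were high. Counts over the tested members are descriptions for that reason. The word called is used for an adjusted p (limma, Benjamini-Hochberg over the 3057) of 0.05 or less together with a log2 difference of 1 or more in either direction. Of 13 mesothelial markers with a probe set of their own, KRT8, KRT18 and VIM had a mean signal over 100, whereas CALB2, MSLN and WT1 averaged 3.49, 2.30 and 5.12 on the log2 scale. None of 11 markers of leukocytes, red cells, endothelium and stroma reached a mean of 100.

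A pair of arrays stood apart from the groups their labels give them at 24 h. For 8 probe sets of p53 target genes the median log2 difference from untreated cells was 0.22 on C replicate 1, against 0.99 and 1.21 on the other C arrays and 1.36 and 1.18 on the P/C arrays. For the 57 other probe sets called between 8 h arrays with and without P, the mean log2 difference in the 8 h direction was 0.45 on P/C replicate 1 and 1.29 on P/C replicate 3. It was 1.49 to 1.52 on the P arrays and 0.34 to 0.38 on the C arrays. By these measures the array labelled C replicate 1 was nearer to untreated cells than the other C arrays were, and the array labelled P/C replicate 1 was near the C arrays in its response to P. The labels were kept, and whether those of these 2 arrays are right was not tested, so every C and P/C value at 24 h depends on them. Many, but not all, of the results that use these groups are therefore also given without C replicate 1 and P/C replicate 1 (or without 1 of them). This was decided after seeing the data. The order of the group means and the likeness of patterns over them were not redone without these arrays. P/C replicate 1 was singled out by its weak response at genes that respond to P, and members respond to P, so values without it are descriptions and support nothing. C replicate 1 was singled out by its low values at p53 targets, which were higher on the other C arrays. Values without C replicate 1 are therefore descriptions as well and support no effect of C.

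Piroxicam alone for 24 h was followed by higher signals of ASNS, SLC3A2, SLC7A5 and SLC6A15. These were 4 of the 10 tested probe sets, called higher by 2.44 to 3.59 fold, and none was called lower. RNA of whole cultures was measured, so a change in every cell and a change in the mix of cells cannot be told apart. Over all tested probe sets 3.14% were called higher and 14.6% in either direction. The log2 fold change was positive for all 10 member probe sets (37.3% of tested probe sets), and for 8 every P array lay above every untreated array (18.8%). Their median was 0.72, and that of all tested probe sets was −0.22. After each array was centred on its median over the tested probe sets the latter was −0.01, and all 10 signs stayed as they were.

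ASNS (205047_s_at) had log2 signals of 10.66, 10.63 and 10.59 on the P arrays at 24 h and of 9.22 and 8.49 on the untreated arrays. The P arrays lay within 0.1 of each other and above both untreated arrays. The log2 fold change was 1.77 (SE 0.38, adjusted p = 0.00366 in limma), a 3.41-fold difference. Without untreated replicate 2 it was 1.41 and the call was lost (adjusted p = 0.0725).

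SLC3A2 (200924_s_at), the heavy chain, gave 9.16, 8.89 and 8.93 with P against 8.11 and 6.91 without drug. The untreated arrays differed more from each other than the P arrays did, yet both lay below all P arrays. The log2 fold change was 1.48 (SE 0.29, adjusted p = 0.00228), and without untreated replicate 2 it was 0.88 (adjusted p = 0.0664). The difference between the 3′ and 5′ probe sets for ACTB, which follows RNA integrity, was 0.81 on untreated replicate 1, 1.45 on untreated replicate 2 and 0.80 to 1.06 on the P arrays, and its part in these values was not tested.

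SLC7A5 (201195_s_at), the light chain LAT1, gave 8.29, 8.35 and 8.63 with P against 7.54 and 6.74 in untreated cells. The groups did not overlap. Its log2 fold change of 1.29 (SE 0.46) had an adjusted p of 0.0490, just inside the limit, and the call was lost when any 1 of the 5 arrays was left out (adjusted p 0.0583 to 0.35) and when all probe sets were tested (0.156).

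SLC6A15 (206376_at), the carrier of branched-chain amino acids and proline, gave 7.38, 7.17 and 7.54 with P and 5.30 and 5.75 without. It was below a signal of 100 on both untreated arrays and above it on all P arrays. The log2 fold change of 1.84 (SE 0.32, adjusted p = 0.00122), or 3.59-fold, was the highest of the members. It was called under each of the 11 alternatives that tested it, at 1.62 to 2.07.

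**Figure D1:**
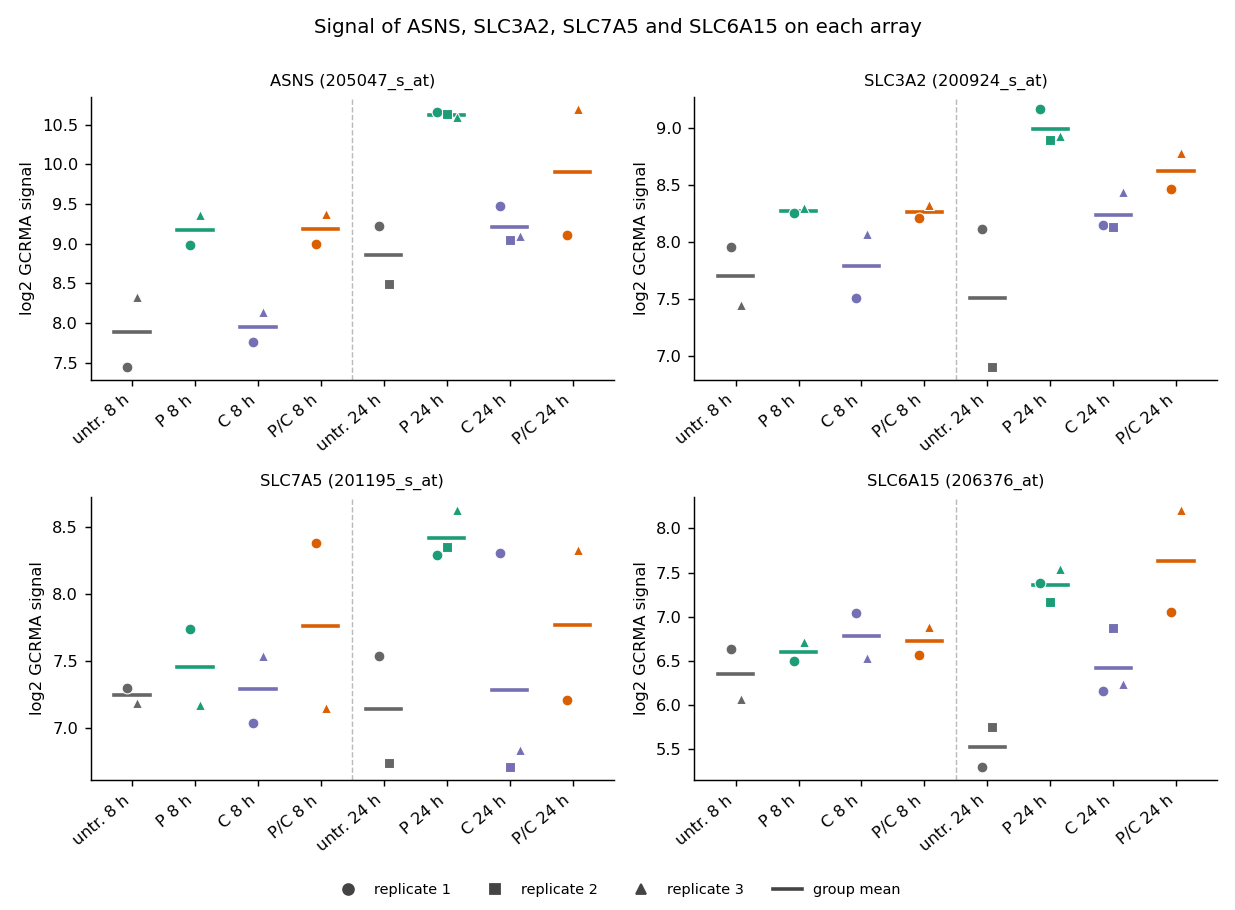
Log2 GCRMA signal (vertical axes, which start above 0) of ASNS, SLC3A2, SLC7A5 and SLC6A15 on each of the 18 arrays by treatment and time (horizontal axes), with replicate 1 as circles, 2 as squares, 3 as triangles and the group mean as a line. The 3 P arrays at 24 h lie above both untreated arrays for each gene, and the 2 P/C arrays at 24 h are far apart for ASNS, at 9.11 and 10.69.

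SLC7A11, the light chain of the cystine/glutamate exchanger, has 3 probe sets. 209921_at gave 11.53, 11.28 and 11.33 with P for 24 h against 10.88 and 10.45 in untreated cells. 217678_at gave 11.10, 10.77 and 10.78 against an untreated mean of 10.17 ± 0.23 (SD, n = 2). The P arrays were higher throughout, but the log2 fold changes of 0.71 (SE 0.28, adjusted p = 0.0633) and 0.72 (SE 0.38, adjusted p = 0.162) did not pass. 207528_s_at, far dimmer, gave 6.93, 6.87 and 6.85 against 6.81 and 6.30, a log2 difference of 0.33 (SE 0.52, adjusted p = 0.661). Over the 18 arrays the bright probe sets had a Pearson r of 0.955 with each other and of 0.851 and 0.835 with 207528_s_at, on arrays that share the treatments.

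The remaining tested members were not called with P. SLC7A1 (212295_s_at) had signals of 9.45, 9.15 and 9.57 with P against 9.13 and 8.73, and a log2 fold change of 0.46 (95% interval −0.03 to 0.94, adjusted p = 0.143). SLC38A2 gave 11.02, 10.51 and 10.89 against 10.80 and 10.43 with 218041_x_at, a kind of probe set that can also bind other transcripts, and 10.87, 10.28 and 10.87 against 10.65 and 10.32 with 220924_s_at. The groups overlapped on both SLC38A2 probe sets, with log2 fold changes of 0.19 and 0.19 and upper limits of 0.67 and 0.66.

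The 10 probe sets that were not tested were dim or flat. The 4 probe sets of SLC1A4 lay between 1.76 and 3.14 over all arrays and SLC6A9 (207043_s_at) between 2.15 and 2.55, near the array medians. SLC7A1 had 4 further probe sets, at 1.58 to 4.93. SLC1A5 (208916_at) was brighter, at 5.42 to 6.46, but below a signal of 100 on every array. With P for 24 h it had 6.21, 6.07 and 6.46 against 5.65 and 5.49 in untreated cells. The P arrays were all higher, by 0.68 on the log2 scale (SE 0.17, adjusted p = 0.0305 in a limma fit of all probe sets), which is short of the fold limit. SLC1A4 (212811_x_at) gave 2.98, 3.03 and 2.56 against 2.36 and 2.45, at a level where such arrays hold little more than background.

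**Figure D2:**
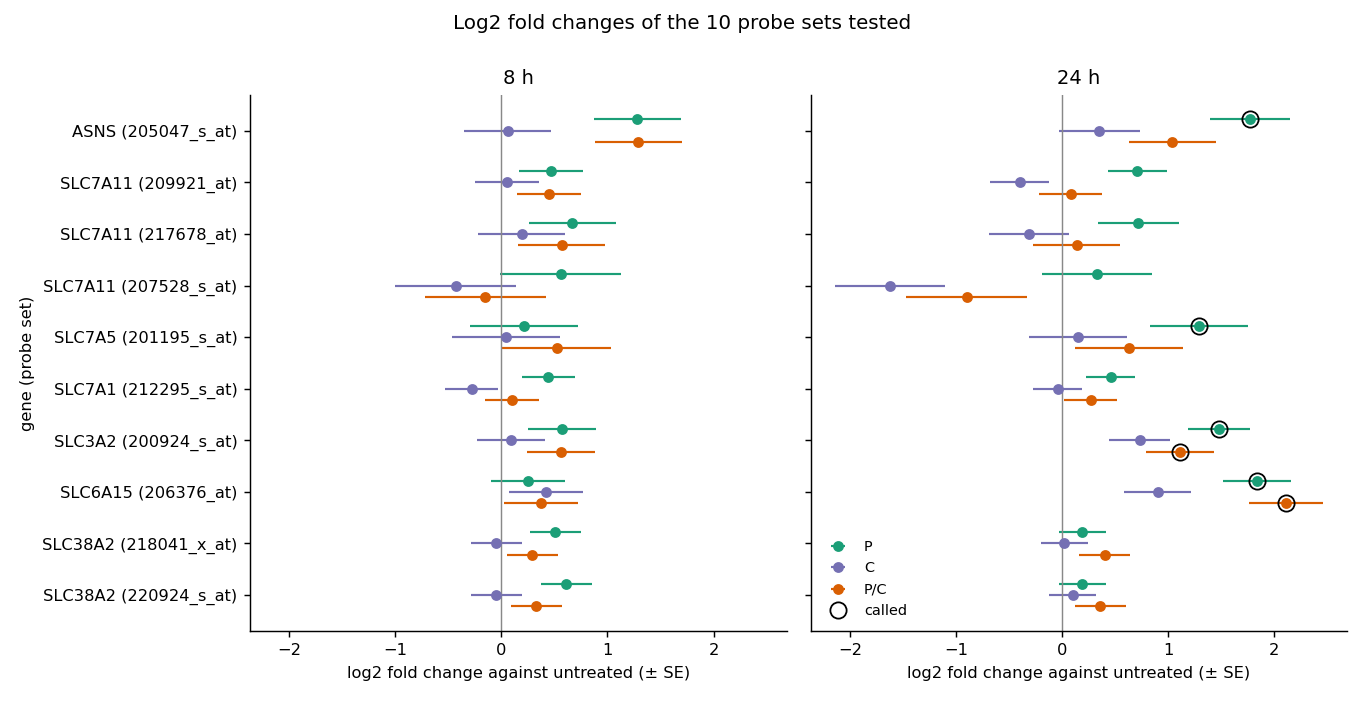
Log2 fold change against untreated cells of the same time (horizontal axes, with bars of 1 SE from limma) for the 10 tested member probe sets (vertical axis) at 8 h and at 24 h, for P, C and P/C. Circles mark calls, which lie only in the 24 h panel, on 4 probe sets with P and on SLC3A2 and SLC6A15 with P/C.

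At 8 h ASNS was already higher with P. Its signals were 8.98 and 9.36 with P, 8.99 and 9.37 with P/C, 7.45 and 8.33 in untreated cells and 7.76 and 8.14 with C. The 4 arrays with P all lay above the 4 without, while P and P/C arrays overlapped, as did untreated and C arrays. Over these 8 arrays the log2 fold change for P was 1.26 (SE 0.29, adjusted p = 0.0227 in limma), or 2.39-fold. ASNS was the single member called, where 0.785% of tested probe sets were called higher and 1.9% in either direction. Each 8 h group alone, with 2 arrays against 2, gave no call for ASNS, at 1.28 for P (adjusted p = 0.21) and 1.29 for P/C (adjusted p = 0.208), comparisons that share their untreated arrays. In these comparisons 0.491% and 0.622% of tested probe sets were called. Unadjusted p values under 0.05 were found for ASNS and SLC38A2 (220924_s_at) with P and for ASNS with P/C, where 9.58% and 11.8% of tested probe sets had such a value. The call over 8 arrays was lost when untreated replicate 1, C replicate 1, P replicate 3 or P/C replicate 3 was left out (1.04 to 1.16, adjusted p 0.0626 to 0.101) and when all probe sets were tested (adjusted p = 0.0586).

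Other members had smaller differences at 8 h. For SLC3A2 the arrays with P, at 8.21 to 8.32, all lay above those without, at 7.45 to 8.07, by 0.52 (SE 0.23, adjusted p = 0.218). SLC38A2 (220924_s_at) gave 10.41 to 10.84 with P against 9.88 to 10.37 without, a log2 difference of 0.50 (SE 0.17, adjusted p = 0.112). SLC7A11 (209921_at) gave 10.84 to 11.12 against 10.37 to 10.68, a difference of 0.44 (SE 0.21, adjusted p = 0.275). With ASNS these made 4 of 10 probe sets whose arrays with P were all higher, against 6.18% of tested probe sets. SLC6A15 overlapped at 8 h, with 6.50 to 6.89 with P and 6.07 to 7.04 without, and its log2 difference was 0.10 (95% interval −0.43 to 0.63). Cisplatin alone at 8 h gave no call among all tested probe sets, where 1.14% had an unadjusted p under 0.05 and none of the 10 tested member probe sets did, and their differences ran from −0.43 to 0.42. Among the dim probe sets that were not tested, SLC7A1 (212290_at) gave 4.05 and 3.46 with C for 8 h against 4.93 and 4.44 in untreated cells. Both C arrays were lower, by −0.94 on the log2 scale (SE 0.26), and the adjusted p in the limma fit of all probe sets was 1.0.

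The change in the effect of P from 8 h to 24 h was tested as such. SLC6A15 had the largest member value, a log2 difference of 1.59 (SE 0.48, adjusted p = 0.211), and of 1.74 for P/C (SE 0.50, adjusted p = 0.288). Neither passed in limma, where 0.196% and 0.0654% of tested probe sets were called. For ASNS the values were 0.49 (95% interval −0.70 to 1.68) and −0.25 (−1.49 to 0.99), and the latter turned to 0.55 (SE 0.47, adjusted p = 0.635) without C replicate 1 and P/C replicate 1. SLC6A15 was called for P when only the arrays of that comparison were fitted (adjusted p = 0.0473), and for P/C when P/C replicate 1 was left out (2.31, adjusted p = 0.0394). The mean of SLC6A15 in untreated cells was 6.36 at 8 h and 5.52 at 24 h, while with P it was 6.61 and 7.37.

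With P/C for 24 h, SLC6A15 and SLC3A2 were called higher than in untreated cells. These were 2 of 10 probe sets, where 2.65% of tested probe sets were called higher and 6.87% in either direction. SLC6A15 had 7.06 and 8.21 with P/C against 5.30 and 5.75, a log2 difference of 2.11 (SE 0.35, adjusted p = 0.00683), or 4.32-fold. SLC3A2 had 8.46 and 8.78 against 8.11 and 6.91, a log2 difference of 1.11 (SE 0.32, adjusted p = 0.0400). For both genes the P/C arrays lay above the untreated ones, and 9 of 10 member log2 fold changes were positive, as were 42.3% of those tested. The exception was SLC7A11 (207528_s_at), with 5.12 and 6.19 against 6.81 and 6.30, at −0.90 (SE 0.57, adjusted p = 0.3 in limma). The bright SLC7A11 probe sets were at 0.08 (209921_at) and 0.14 (217678_at). The SLC3A2 call was lost without untreated replicate 2 (0.51, adjusted p = 0.422), without P/C replicate 3 (0.96, adjusted p = 0.17) and under 4 other alternatives, and that of SLC6A15 when only the arrays of the comparison were fitted (adjusted p = 0.0525).

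ASNS was split between the P/C arrays, which gave 9.11 and 10.69. Replicate 1 lay between the untreated arrays and replicate 3 at the level of the P arrays. The log2 fold change was 1.04 (SE 0.41, adjusted p = 0.11), with 1.84 (adjusted p = 0.00643) without replicate 1 and 0.25 (adjusted p = 0.719) without replicate 3. SLC7A5 had the same order, with 7.21 and 8.33 against 7.54 and 6.74 in untreated cells (0.63, SE 0.51, adjusted p = 0.424). SLC38A2 (218041_x_at) gave 11.02 and 11.01, above both untreated arrays, at 0.40 (SE 0.24, adjusted p = 0.287). Without C replicate 1 and P/C replicate 1, ASNS, SLC3A2 and SLC6A15 were past the limits with P/C, at 1.84, 1.27 and 2.68 (adjusted p 0.00462, 0.0424 and 0.00029), where 4.35% of tested probe sets were called higher. That fit has 1 P/C array, which is assumed to vary like the other groups.

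**Figure D3:**
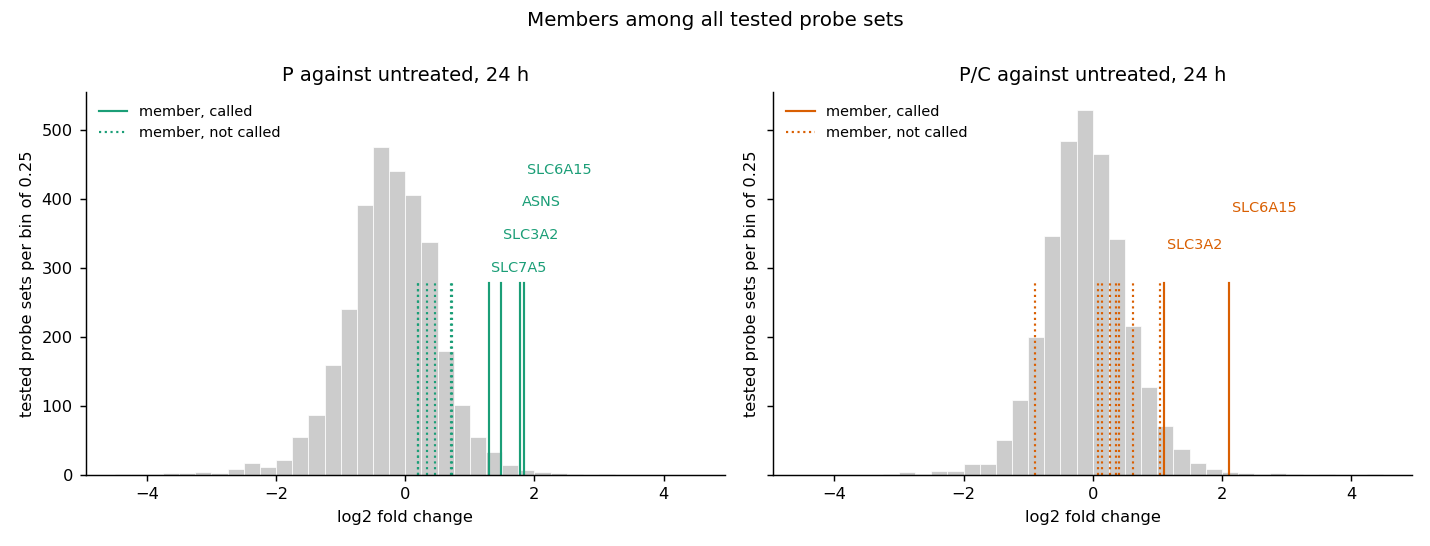
Numbers of tested probe sets (vertical axis) by log2 fold change in bins of 0.25 (horizontal axis) at 24 h for P and for P/C against untreated cells, with the 10 member probe sets as vertical lines, solid where called. With P all member lines lie above 0 while the median of the 3057 probe sets is −0.22. With P/C 9 of 10 do, and SLC7A11 (207528_s_at) does not.

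Cisplatin alone for 24 h gave no member call. No tested probe set passed in limma (smallest adjusted p = 0.0554), although 3 members and 13.8% of all had an unadjusted p under 0.05. SLC7A11 (207528_s_at) had 6.41, 4.06 and 4.34 with C against 6.81 and 6.30 in untreated cells, a log2 difference of −1.62 (SE 0.52, adjusted p = 0.26). C replicate 1, the array that stood apart, lay among the untreated values and the other C arrays far below. Without it the difference was −2.36 and past the limits of a call (adjusted p = 0.00108 in limma). Because that array was singled out by its weak response at p53 targets, this value is a description and supports nothing. The bright SLC7A11 probe sets had 10.78, 9.77 and 10.26 (209921_at) and 10.72, 9.10 and 9.74 (217678_at) with C. Their log2 differences were −0.40 (SE 0.28, adjusted p = 0.507 in limma) and −0.31 (SE 0.38, adjusted p = 0.702), and neither was called. Without C replicate 1 and P/C replicate 1 these were −0.65 and −0.75, which are descriptions as well.

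SLC6A15 and SLC3A2 were the tested members whose C arrays all lay above the untreated ones at 24 h. These were 2 of 10 probe sets, against 9.94% of all tested probe sets. SLC6A15 had 6.16, 6.87 and 6.24 with C, a log2 difference of 0.90 (SE 0.32, adjusted p = 0.26). SLC3A2 had 8.15, 8.13 and 8.44, a difference of 0.73 (SE 0.29, adjusted p = 0.306). Without both arrays that stood apart, SLC6A15 was called at 1.04 (adjusted p = 0.042), where 1.54% of tested probe sets were called higher and 3.43% lower. Of the members not tested, SLC1A5 had 6.02, 5.82 and 5.73 with C against 5.65 and 5.49 (0.29, SE 0.17). SLC6A9 had 2.55, 2.38 and 2.28 against 2.20 and 2.19 (0.20, SE 0.13), so the C arrays of both were higher too. The dim SLC7A1 probe set 212290_at went the other way. Its C arrays, at 3.64, 4.02 and 4.17, all lay below the untreated ones, at 4.79 and 4.34 (−0.62, SE 0.23). For ASNS the C arrays, at 9.48, 9.04 and 9.09, overlapped the untreated ones, with a log2 difference of 0.35 (95% interval −0.45 to 1.15).

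**Figure D4:**
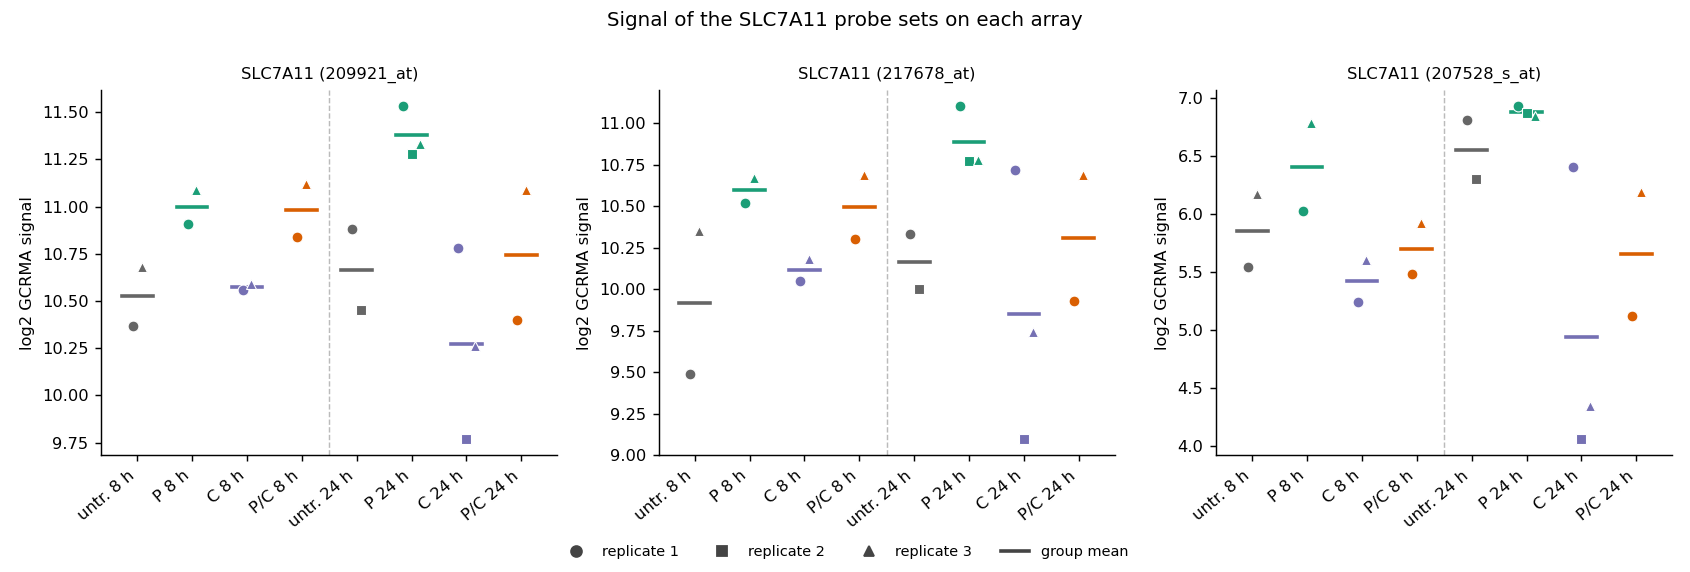
Log2 GCRMA signal (vertical axes, which start above 0) of the 3 SLC7A11 probe sets on each array by treatment and time (horizontal axes), with replicate 1 as circles, 2 as squares, 3 as triangles and the group mean as a line. At 24 h C replicates 2 and 3 lie below both untreated arrays on each probe set while C replicate 1 does not, and on 207528_s_at the values run from 4.06 to 6.93.

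The combination was also compared with each drug at 24 h. Against P alone no member was called, where 0.164% of tested probe sets were. All 3 SLC7A11 probe sets were lower on both P/C arrays than on all P arrays, with log2 differences of −0.63 (SE 0.28, adjusted p = 0.217), −0.58 (SE 0.38, adjusted p = 0.409) and −1.23 (SE 0.52, adjusted p = 0.202). SLC3A2 was also lower on both, at −0.37 (95% interval −0.99 to 0.25). So 4 of 10 probe sets, from 2 genes, did not overlap in this direction, against 9.72% of tested probe sets. The SLC7A11 probe set 207528_s_at reached a signal of 100 on 5 arrays, and these include the P arrays at 24 h. Its lower values with P/C are thus favoured by the filter, and the count is a description. For ASNS the difference was −0.73 (95% interval −1.53 to 0.07), and it rested on which P/C array was kept. It was 0.06 (adjusted p = 0.978) without P/C replicate 1, and −1.52 (adjusted p = 0.0128), a call, without P/C replicate 3. For SLC6A15 it was 0.27 (−0.41 to 0.95). Without C replicate 1 and P/C replicate 1 no member was called against P. The SLC7A11 probe sets were then at −0.29, −0.20 and −0.70, SLC3A2 at −0.21, ASNS at 0.06 and SLC6A15 at 0.84 (adjusted p = 0.41).

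Against C alone no member was called either, where 0.0981% of tested probe sets were. All 10 differences were positive, at 0.26 to 1.21, as were 49.5% of those tested. SLC6A15 had the highest, 1.21 (SE 0.32, adjusted p = 0.136), and both P/C arrays lay above all C arrays. This was so for 4 of 10 member probe sets, against 12.9% of tested probe sets. For ASNS the difference was 0.69, with −0.10 without P/C replicate 3. Without C replicate 1 and P/C replicate 1 the differences were 1.63 for ASNS, 1.65 for SLC6A15, 1.55 for SLC7A5 and 1.99, 1.27 and 1.08 for the SLC7A11 probe sets 207528_s_at, 217678_at and 209921_at. These 6 were past the limits of a call, as were 4.06% of tested probe sets in this direction. The values rest on 1 P/C array and 2 C arrays, with the array of the weak P response left out, and give no support to a difference between P/C and C.

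In the order of the group means, P at 24 h was the highest group for ASNS (10.63), SLC3A2 (8.99), SLC7A5 (8.42) and the 3 SLC7A11 probe sets. For ASNS it was followed by P/C at 24 h (9.90), C at 24 h (9.20), P/C at 8 h (9.18), P at 8 h (9.17), untreated at 24 h (8.85), C at 8 h (7.95) and untreated at 8 h (7.89). Neighbours in this order overlapped except untreated cells at 24 h and C at 8 h. For SLC6A15 the highest group was P/C at 24 h (7.64), which overlapped P at 24 h (7.37), and untreated cells at 24 h were lowest (5.52).

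By the pattern over the 8 group means, among 2750 tested probe sets with 1 gene symbol, those most like ASNS were DDX60, TRIB3 and DYNLRB1, each with a Pearson r of 0.983, then PFKM (0.981) and MIF (0.978). Over the 18 arrays r with ASNS was 0.968 for TRIB3, a pseudokinase known to rise under the stress response, and 0.812 to 0.885 for the other 4. TRIB3 had log2 signals of at least 9.67 on the 3 P arrays at 24 h, 7.92 and 7.10 in untreated cells and 7.15 and 9.42 with P/C. It was split between the P/C arrays in the same order as ASNS. TRIB3 was among the 57 probe sets by which P/C replicate 1 was singled out, so its split is no separate observation. The probe sets most like SLC3A2 were led by NDUFV1 (0.979) and CD55 (0.970), and those most like SLC7A5 by NDFIP1 (0.971). These values describe points that share arrays and treatments.

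Genes related in function were counted list by list. Of 14 tested probe sets of integrated stress response factors and targets, 7 were called higher and 2 lower with P at 24 h. Over all tested probe sets 3.14% were called higher and 11.4% lower. The median was 1.08 for the list and −0.22 over all tested. ATF3, a transcription factor, was higher by 2.45 (SE 0.87, adjusted p = 0.0446), TRIB3 by 2.30 (SE 0.49, adjusted p = 0.00361) and CEBPG, a partner of ATF4, by 1.67 (SE 0.29, adjusted p = 0.00119). The 2 probe sets called lower were those of EIF2S1, the alpha subunit of eIF2 itself, and 2 of 14 is near the share of all tested. With P/C 2 were called higher, ATF3 (4.32) and CEBPG (1.46), where 2.65% of all tested probe sets were. Without C replicate 1 and P/C replicate 1, which leaves 1 P/C array, ATF3 was at 3.45 and CEBPG at 1.98. At 8 h 6 were called higher with P and none lower, where 0.785% and 1.11% of all tested were, and the median was 0.95 against −0.05. These 6, with CEBPG and TRIB3 among them, belong to the 57 probe sets by which P/C replicate 1 was singled out. Their values without that array are therefore part of that choice.

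Serine and one-carbon enzymes and aminoacyl-tRNA synthetases were called higher in part. Over all tested probe sets 3.14% were called higher with P at 24 h, 2.65% with P/C at 24 h and 0.785% with P at 8 h. Of 5 serine and one-carbon probe sets, PHGDH, which starts serine synthesis (1.87, SE 0.37, adjusted p = 0.00217), and PSAT1, its next enzyme (1.30, SE 0.31, adjusted p = 0.00716), were called with P at 24 h, PHGDH with P/C (1.41, and 2.26 without both arrays, where PSAT1 was past the limits too at 1.40) and PSAT1 with P at 8 h (1.33). Of 11 probe sets of cytosolic aminoacyl-tRNA synthetases, which charge tRNAs, 4 were called higher with P at 24 h and none lower. They were AARS1 (1.45), both probe sets of WARS1 (1.30 and 1.25) and SARS1 (1.24), and with P/C AARS1 (1.18), SARS1 (1.10) and WARS1 (1.09) were called. Without both arrays AARS1 (1.46), EPRS1 (1.03) and SARS1 (adjusted p = 0.0128) were past the limits, and WARS1 was not (1.09 and 1.06, adjusted p 0.0722 and 0.0708). At 8 h AARS1 alone was called (1.26). AARS1 and PSAT1 were also among the probe sets by which P/C replicate 1 was singled out, so their values without it are part of that choice.

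Other carriers and enzymes gave few calls, to be read beside the shares of all tested probe sets given above. Of 5 tested probe sets of other plasma membrane transporters none was called with P at 24 h (median −0.08) and 2 with P/C, both of SLC6A8 (1.17 and 1.05), which carries creatine, of which the first kept its call without both arrays (1.26, adjusted p = 0.0477) and the second did not (0.91, adjusted p = 0.0723). None of 6 probe sets of other amino acid enzymes was called in these 3 comparisons. Of 7 cystine and glutathione probe sets GPX4, which reduces lipid peroxides with glutathione, was called with P at 24 h (1.14, adjusted p = 0.0278), and GSS, glutathione synthetase, with P/C (1.16, adjusted p = 0.0137). Without both arrays GSS (1.17) and GPX4 (1.46) were past the limits with P/C. Of 5 probe sets of nutrient sensing by mTORC1, SESN1, which is also among the p53 targets, was called with P/C (2.01, adjusted p = 0.0126, and 2.13 without both arrays) and none with P.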

How the data were processed

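The 18 HGU133A arrays, each of 1 RNA sample of MSTO-211H cells, were assigned to 8 groups by their labels. The replicates are described as biological. The deposited values are log2 signals, which the authors computed with GCRMA (version not given in the sources used here) after leaving out arrays of outlying intensity. GCRMA corrects the background and normalizes between arrays, so a general shift of signal between arrays is removed. The deposited values hold no counts, and the number of arrays limits the precision.

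The filter stated in the methods was applied to the 18 deposited arrays, on which fewer probe sets passed than the methods give. The reason was not found, and adjusted p values and shares rest on the smaller set. A further 68 control probe sets of the manufacturer were excluded, and limma 3.58.1 in R 4.3.3 was fitted to the 3057 probe sets left, with 1 mean for each of 8 groups and no covariates (10 residual and 5.76 prior degrees of freedom). Tests were two-sided and adjusted by the Benjamini-Hochberg method in each of 11 comparisons. Probe sets that did not pass were taken from a fit of all except the controls. The members, lists and tests were chosen with earlier results of these data known. Every member probe set is given, and of each list the called genes with the largest changes in P or P/C at 24 h, up to 3. EIF2S1 and further called probe sets were named after their values were seen.

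Of the probe sets, 19071 have 1 gene symbol, 1043 several and 2169 none. Promoters are from RefSeq on GRCh38.p14, and 8 of 10 genes matched by symbol. Replicate numbers were tested for pairing by the correlation of deviations from group means. At 8 h all 12 pairs of arrays exceeded the limit of 0.1 (0.20 to 0.66), so arrays with the same number deviated alike. The deviations within each 8 h group mirror each other, so each correlation occurs for both replicate numbers and the 12 are not independent. The main fit ignores this pairing, and only the alternatives with a replicate block include it. At 24 h 5 of 12 pairs exceeded the limit (−0.22 to 0.39). The fit was tested on simulated data. Alternatives were no filter, a signal of at least 200, quantile normalization, median centring, array weights, only the arrays of a comparison, a replicate block and leaving out each array.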

Additional observations from a re-analysis of the deposited data

How the results depend on the processing

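Of 760 values of single probe sets under the alternatives 690 kept their sign and side of the limits, 20 lost a call, 18 gained one and 32 changed sign, and of 147 counts of calls 125 stayed within 1.5 times. The 4 calls with P at 24 h fell to 1 without untreated replicate 2 and to 3 without any other array of that comparison, and the leave-one-out range was 1 to 3. With C at 24 h the count of 0 became 1 with array weights, 2 without C replicate 1 and P/C replicate 1, and 0 to 1 when single arrays were left out. The 2 calls with P/C at 24 h became 1 with array weights, with no filter, with a signal of at least 200 and with the replicate block, 0 with only the arrays of the comparison, and 1 to 3 when single arrays were left out. The 8 h call with P was lost with no filter (0) and in the leave-one-out range of 0 to 1. P/C against P gave 0 to 1 calls and P/C against C 0 to 2 when single arrays were left out, and the latter 6 without both arrays. The time difference of P gave 1 call with only its arrays, and that of P/C 1 without both arrays and 0 to 1 when single arrays were left out. The cause was not tested. With the replicate block SLC3A2 with P/C was 0.88 (adjusted p = 0.0935 in limma), and ASNS at 8 h was 1.26 (adjusted p = 0.0145 with the block among the 8 h arrays), and the block changed no other call.

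Values that changed sign were not called in the main setting. With C at 24 h ASNS ran from −0.01 to 0.71, SLC7A11 (217678_at) from −0.75 to 0.06 and SLC38A2 (220924_s_at) from −0.07 to 0.27 when single arrays were left out. SLC7A5 was −0.19 with array weights, −0.36 without both arrays and −0.36 to 0.55 when single arrays were left out. SLC7A1 was 0.05 with median centring and −0.24 to 0.16 with single arrays out, and SLC38A2 (218041_x_at) −0.06 with the replicate block, −0.02 without both arrays and −0.16 to 0.21 with single arrays out. With P/C at 24 h SLC7A11 was −0.18 (209921_at) and −0.19 (217678_at) with the replicate block, and −0.27 to 0.43 and −0.23 to 0.52 with single arrays out. SLC6A15 at 8 h ran from −0.04 to 0.24. For P/C against P, ASNS was 0.06 without both arrays and −1.52 to 0.06 with single arrays out, and SLC6A15 −0.30 to 0.84. For P/C against C, ASNS ran from −0.10 to 1.49 and SLC7A5 from −0.07 to 1.04. The time difference of P/C for ASNS was 0.55 without both arrays and −1.04 to 0.55 with single arrays out. Groups of 2 or 3 arrays limit what could pass, and SLC1A4, SLC6A9 and most SLC7A1 probe sets were too dim for a change to be seen.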
